A study of Mus musculus with 16 samples.

Results

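The genes described here are a list of 10 named for the endothelium of the blood-nerve barrier in peripheral nerve: Cldn5, Pecam1, Cdh5, Tjp1, Ocln, Abcb1a, Mfsd2a, Kdr, Tek and Plvap. The genes of this list are not all particular to that endothelium. They were chosen by name, and every probe set that the annotation of the array ties to one of these symbols alone was taken. This gave 13 probe sets for 10 of 10 genes, among 18193 genes with such a probe set. For a gene with several, the brightest by its mean across all 16 arrays was used. All 10 genes passed the filter on dim signal, which left 14545 genes for testing.

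RNA was measured in the mouse sciatic nerve of 2 strains with Affymetrix Mouse Genome 430 2.0 arrays, which report each transcript as the brightness of a set of short probes. One strain was C57BL/6, labelled wild type. The other was C57BL/6 OlaHsd-Wlds, labelled WldS mutant and here called WldS, in which severed axons are known to degenerate late. In each strain, 56 mice aged 8 to 12 weeks were used. All mice except those of day 0 received a microcrush of the left sciatic nerve at mid-thigh. Nerve was collected at day 3, day 7 or day 14 after the crush, as a 4 mm segment of the distal stump from 1 mm to 5 mm beyond the lesion. Day 0 was a 4 mm segment of sciatic nerve from mice that were not injured. Nerves of a group were pooled before RNA was extracted, the number in each pool is not given in the sources used here, and each of the 8 groups had 2 arrays labelled as biological replicates. It is not stated in the sources used here if each array had a pool of its own. The animals' own spread therefore cannot be seen, and each p-value below measures only the spread between arrays, which may be technical.

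The blood-nerve barrier is made by endothelial cells of the vessels inside the fascicle and by the perineurium, the cell sheath around it. Endothelial barrier cells are known for continuous tight junctions, few transport vesicles, and transporters that pump compounds back to the blood. Cldn5 and Ocln encode membrane proteins of the tight junction, and Tjp1 encodes ZO-1, the scaffold beneath them. Cdh5 encodes VE-cadherin of the adherens junction and Pecam1 an adhesion protein, both general to endothelium. Mfsd2a encodes a lipid transporter that restrains vesicle transport across brain endothelium, and Abcb1a encodes P-glycoprotein, an efflux pump. Kdr and Tek encode the receptors for VEGF and for angiopoietins. Plvap encodes the protein of the diaphragms of fenestrated and leaky endothelium, which mature brain barrier vessels lack.

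The promoters of Mfsd2a, Abcb1a, Cldn5 and Tjp1 are shown because these genes were all lower at each time after crush in C57BL/6. They come from the RefSeq promoter table (assembly GRCm38.p6), which held a promoter for 7 of the 10 genes, and run from 250 bases before to 50 bases after an annotated start. The Mfsd2a promoter is chr4:122961139-122961438 on the minus strand and that of Abcb1a chr5:8566841-8567140 on the plus strand. The Cldn5 promoter is chr16:18776597-18776896 on the plus strand and that of Tjp1 chr7:65371195-65371494 on the minus strand. The Tjp1 window lies inside the annotated gene (65296165 to 65527850), at an internal start and not at its outermost one. Capitals mark, on either strand, CTTTGA (reverse TCAAAG), a core of sites for the TCF/LEF factors of Wnt signalling, and GGAAG (reverse CTTCC), a core of sites for ETS factors of endothelial genes. The motifs were kept after their matches had been seen.
Mfsd2a: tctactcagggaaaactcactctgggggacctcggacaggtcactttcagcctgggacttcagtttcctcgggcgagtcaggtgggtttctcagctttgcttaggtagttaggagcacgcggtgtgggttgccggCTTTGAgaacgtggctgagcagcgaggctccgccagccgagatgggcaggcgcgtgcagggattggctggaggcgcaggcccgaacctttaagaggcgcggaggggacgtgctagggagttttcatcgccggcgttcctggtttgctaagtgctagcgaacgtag
Abcb1a: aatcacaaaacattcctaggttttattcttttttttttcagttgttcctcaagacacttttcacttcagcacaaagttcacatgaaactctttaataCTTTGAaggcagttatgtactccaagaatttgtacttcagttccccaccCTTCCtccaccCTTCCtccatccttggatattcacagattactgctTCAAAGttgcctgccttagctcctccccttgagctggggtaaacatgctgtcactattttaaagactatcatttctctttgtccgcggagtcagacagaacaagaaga
Cldn5: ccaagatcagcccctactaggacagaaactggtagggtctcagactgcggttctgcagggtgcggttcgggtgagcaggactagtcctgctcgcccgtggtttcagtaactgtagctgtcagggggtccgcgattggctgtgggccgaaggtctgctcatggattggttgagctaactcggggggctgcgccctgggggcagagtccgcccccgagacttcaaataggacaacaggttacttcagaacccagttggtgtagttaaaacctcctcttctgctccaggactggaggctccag
Tjp1: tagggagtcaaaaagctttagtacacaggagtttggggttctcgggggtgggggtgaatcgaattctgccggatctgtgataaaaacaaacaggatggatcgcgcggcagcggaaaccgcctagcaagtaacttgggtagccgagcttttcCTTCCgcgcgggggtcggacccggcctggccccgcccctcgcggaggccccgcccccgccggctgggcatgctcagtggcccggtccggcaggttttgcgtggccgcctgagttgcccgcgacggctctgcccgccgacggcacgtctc
The TCF/LEF core was found once in the Mfsd2a promoter and 2 times in that of Abcb1a, and in 5257 of 32851 promoters of this length, or 16%. The ETS core was found 2 times in the Abcb1a promoter and once in that of Tjp1, and in 23460 of 32851 promoters, or 71.4%. The Cldn5 window held neither string. These matches are letters only, and no binding was measured.

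Signals are given as the deposited log2 values, so that a difference of 1 is a factor of 2, and the values of different probe sets are not compared with each other. The array medians lay between 6.42 and 6.49, and the Schwann cell genes Mbp and Pmp22 both had means of 13.7 over the 16 arrays. On control probe sets of Actb and Gapdh, the 3′ end was brighter than the 5′ end by 3.81 on the log2 scale on WldS day 0 replicate 1 and by 3.23 on WldS day 14 replicate 2, against 1.63 to 2.46 on the other 14 arrays. A high value of this index is a sign of shortened RNA. For the genes named for the endothelium of the blood-nerve barrier, values that these arrays touch are given without them where a call ended. For genes of the other lists, no values without these arrays are given here. The part of these arrays in the calls of those lists therefore cannot be read from them. Differences were tested with limma over all 14545 genes, and a gene is called higher or lower where its Benjamini-Hochberg adjusted p was below 0.05.

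The transport genes showed the steepest loss among the 10 genes. On the day 0 arrays of C57BL/6, Mfsd2a was at 9.88 and 9.87. It stood at 6.09 and 5.93 at day 3, at 6.07 and 6.31 at day 7, and at 7.92 and 8.13 at day 14. No injured C57BL/6 array came within 1 log2 unit of the uninjured ones, and the day 14 pair lay between the others. The fall at day 3 was 14.6-fold (log2 difference -3.86 ± 0.17 SE, adjusted p = 7.7e-10). It was 12.9-fold at day 7 (adjusted p = 1.4e-09) and 3.61-fold at day 14 (adjusted p = 2.0e-06). From day 7 to day 14 the signal rose again by 1.84 ± 0.17 on the log2 scale (adjusted p = 1.2e-05). In bulk tissue, fewer cells of a type, less RNA per cell and a larger share of RNA from other cells cannot be told apart, here and below.

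In WldS nerve, Mfsd2a also fell, but by less at the early times. Its arrays read 10.12 and 10.02 at day 0, 7.79 and 7.89 at day 3, 7.80 and 8.45 at day 7, and 8.00 and 8.12 at day 14. All 6 injured WldS arrays lay between 7.79 and 8.45, the range in which only the day 14 arrays of C57BL/6 were found. The WldS fall was 4.69-fold at day 3 (log2 difference -2.23, adjusted p = 2.5e-07), 3.85-fold at day 7 and 4.02-fold at day 14. Subtracting the C57BL/6 change from the WldS change gave 1.63 ± 0.24 at day 3 (adjusted p = 0.00087) and 1.74 ± 0.24 at day 7 (adjusted p = 0.00084). At day 14 this difference was -0.15, with a 95% confidence interval of -0.67 to 0.37 (adjusted p = 0.89).

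Abcb1a fell in both strains at all 3 times. Its C57BL/6 arrays read 11.65 and 11.30 at day 0, 9.44 and 9.80 at day 3, 9.76 and 9.75 at day 7, and 10.09 and 9.95 at day 14. The WldS arrays read 11.22 and 11.35 at day 0, 10.26 and 10.39 at day 3, 10.32 and 10.16 at day 7, and 10.58 and 10.34 at day 14. Uninjured arrays of the strains overlapped, and every injured WldS array lay above every injured C57BL/6 array. The pump gene fell 3.62-fold in C57BL/6 at day 3 (-1.85 ± 0.15, adjusted p = 2.3e-07) and 2.74-fold at day 14. In WldS it fell 1.95-fold at day 3 (-0.96 ± 0.15, adjusted p = 0.00018) and 1.78-fold at day 14 (adjusted p = 0.0013). The strain difference in these changes was 0.89 ± 0.21 at day 3 (adjusted p = 0.023), 0.68 at day 7 (adjusted p = 0.097) and 0.63 at day 14 (adjusted p = 0.21). The day 3 difference passed the test by a small margin and did not without both arrays of high 3′/5′ index (0.83, adjusted p = 0.068). It also failed without C57BL/6 day 0 replicate 1 (0.71), C57BL/6 day 3 replicate 1 (0.71), WldS day 0 replicate 1 (0.83), WldS day 3 replicate 1 (0.95) or WldS day 3 replicate 2 (0.82). A second Abcb1a probe set fell by 1.53 in C57BL/6 and by 1.02 in WldS at day 3, and its strain difference of 0.51 did not pass (adjusted p = 0.17).

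**Figure D1:**
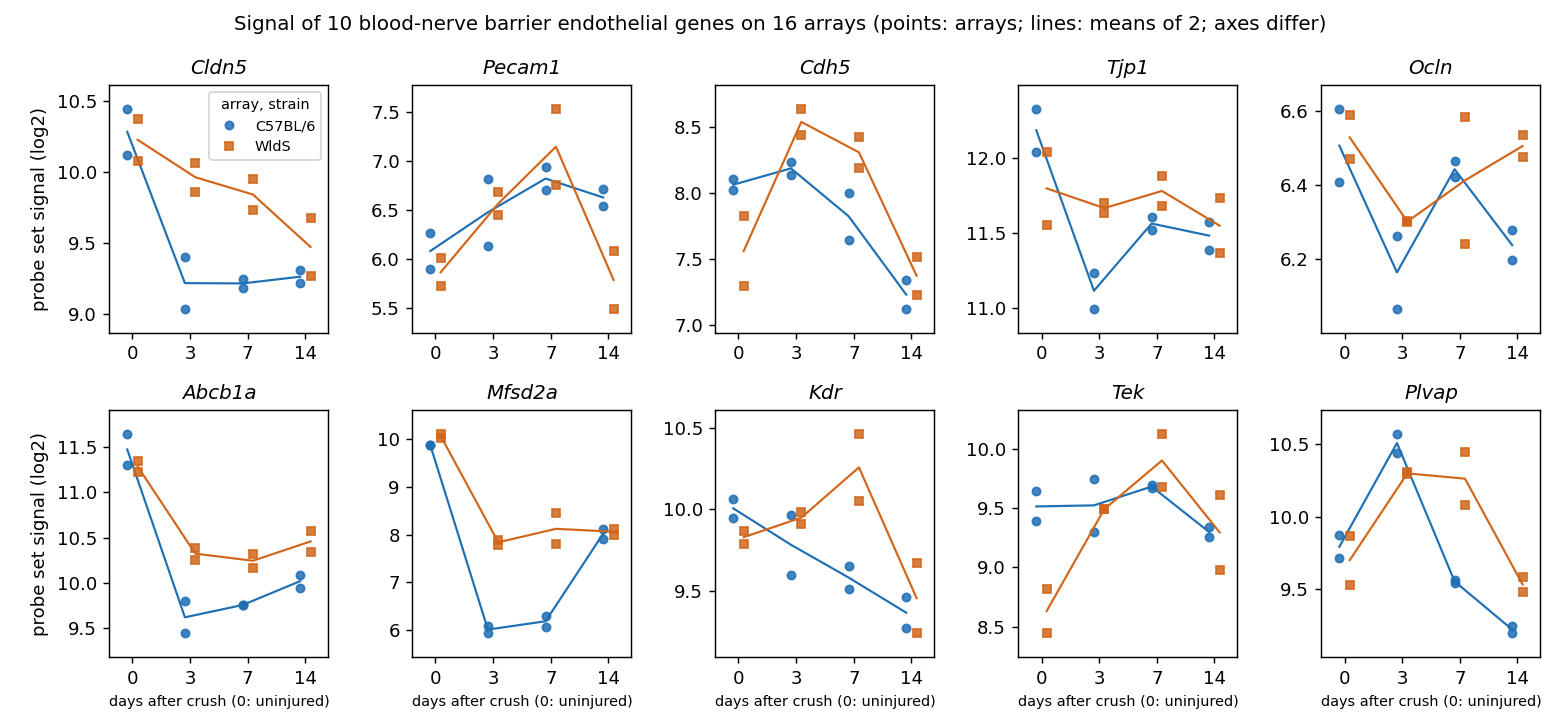
Each panel plots the log2 signal of 1 gene (vertical axes differ) against the day after crush (day 0 uninjured), with a point for each of the 16 arrays and lines through the means of 2. For Mfsd2a the C57BL/6 arrays of day 3 and day 7 lie between 5.93 and 6.31, and no WldS array lies below 7.79.

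The tight junction gene Cldn5 fell in C57BL/6 by day 3 and stayed low. Its arrays read 10.12 and 10.44 at day 0, 9.04 and 9.40 at day 3, 9.25 and 9.18 at day 7, and 9.31 and 9.22 at day 14. The fall was 2.09-fold at day 3 (-1.06 ± 0.17, adjusted p = 0.00018), 2.09-fold at day 7 and 2.02-fold at day 14. The 3 injured C57BL/6 groups overlapped each other and lay below both uninjured arrays.

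In WldS, Cldn5 was called only at day 14. It was at 10.08 and 10.37 at day 0, 9.86 and 10.06 at day 3, 9.95 and 9.73 at day 7, and 9.68 and 9.27 at day 14. Only the last group passed the test (-0.75 ± 0.17, adjusted p = 0.0065), and it did not without WldS day 14 replicate 2 (-0.55, adjusted p = 0.069). At day 3 the WldS difference was -0.26, with an interval of -0.63 to 0.11. Cldn5 was thus higher in WldS than in C57BL/6 by 0.74 at day 3 (adjusted p = 0.012) and by 0.62 at day 7 (adjusted p = 0.043). The first of these calls was lost when C57BL/6 day 3 replicate 1 (0.56) or WldS day 3 replicate 2 (0.64) was left out, and the second ended in 10 of 26 alternatives. The changes from day 0 did not differ between strains by the test (0.80 ± 0.24 at day 3, adjusted p = 0.072).

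For Tjp1, the C57BL/6 arrays were at 12.32 and 12.04 at day 0, 10.99 and 11.23 at day 3, 11.52 and 11.61 at day 7, and 11.57 and 11.39 at day 14. All 6 injured arrays lay below the uninjured pair, with day 3 lowest. The scaffold gene fell 2.09-fold at day 3 (-1.07 ± 0.17, adjusted p = 0.00018), and the later differences of -0.62 and -0.70 also passed. Those 2 calls ended without C57BL/6 day 0 replicate 1 (-0.48 at day 7 and -0.56 at day 14), without C57BL/6 day 7 replicate 1 (-0.58) or without C57BL/6 day 14 replicate 2 (-0.61).

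The WldS arrays of Tjp1 read 11.55 and 12.04 at day 0, 11.63 and 11.70 at day 3, 11.88 and 11.68 at day 7, and 11.73 and 11.37 at day 14. Injured and uninjured WldS arrays overlapped at each time, and the day 3 difference was -0.13, with an interval of -0.50 to 0.24. The change differed between strains at day 3 by 0.93 ± 0.24 (adjusted p = 0.037). That call ended in 10 of 26 alternatives, among them leaving out both arrays of high 3′/5′ index (0.69, adjusted p = 0.097), and the lower of the uninjured Tjp1 values was from one of these arrays. Without single arrays it ended for replicate 1 of C57BL/6 day 0 (0.79), C57BL/6 day 3 (0.81), C57BL/6 day 7 (0.93), WldS day 0 (0.69) and WldS day 3 (0.97), and for replicate 2 of C57BL/6 day 7 (0.93) and WldS day 3 (0.90). With that index as a covariate, Tjp1 was lower in WldS too at day 3 (-0.62, adjusted p = 0.019), as was Cldn5 (-0.63, adjusted p = 0.043).

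Ocln gave a weaker and less certain reading. Its brighter probe set read 6.41 and 6.61 at day 0 and 6.07 and 6.26 at day 3 in C57BL/6, and it ranged from 6.07 to 6.61 over all 16 arrays. The day 3 groups did not overlap, and the difference of -0.34 ± 0.13 was called (adjusted p = 0.045). That call ended in 13 of 26 alternatives, among them leaving out C57BL/6 day 0 replicate 2 or C57BL/6 day 3 replicate 1 (-0.24 in both). The dimmer Ocln probe set read 6.06 and 6.58 at day 0 against 5.33 and 5.16 at day 3, a difference of -1.07 (adjusted p = 0.0013), and fell by 0.97 at day 14 (adjusted p = 0.0040). The probe sets of Ocln thus disagree on the size of the change. No Ocln difference was called in WldS, where that at day 3 was -0.23, with an interval of -0.50 to 0.05.

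The adherens junction gene Cdh5 did not fall early in either strain. In C57BL/6 it read 8.02 and 8.10 at day 0, 8.14 and 8.23 at day 3, 8.00 and 7.65 at day 7, and 7.34 and 7.12 at day 14. Only day 14 was called, at -0.83 ± 0.18 against day 0 (adjusted p = 0.0024), and both arrays of that day lay under all others of the strain. In WldS the arrays were at 7.30 and 7.82 at day 0, 8.44 and 8.63 at day 3, 8.43 and 8.19 at day 7, and 7.52 and 7.23 at day 14. Cdh5 rose there by 0.98 ± 0.18 at day 3 (adjusted p = 0.00067) and by 0.75 at day 7 (adjusted p = 0.0051), then fell by 0.93 from day 7 to day 14 (adjusted p = 0.0072).

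The WldS rises of Cdh5 were measured against a day 0 group whose lower array, 7.30, had the highest 3′/5′ index. Without that array, WldS day 0 replicate 1, the day 7 rise was 0.48 (adjusted p = 0.065). With the index as a covariate the day 3 rise was 0.56 (adjusted p = 0.069) and the day 7 rise 0.39 (adjusted p = 0.17). The fall from day 7 to day 14 did not pass without WldS day 14 replicate 2 (-0.79, adjusted p = 0.10). The dim second probe set of Cdh5 (4.97 to 5.45) rose by 0.35 in WldS at day 3 (adjusted p = 0.048), and its difference of -0.01 in C57BL/6 at day 14 was not called. The change from day 0 to day 7 differed between strains by 0.98 ± 0.25 (adjusted p = 0.043), a call that ended in 19 of 26 alternatives. Among these were the mean of both probe sets (0.58, adjusted p = 0.080) and leaving out both arrays of high index (0.72, adjusted p = 0.13).

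Pecam1, dim on this array, was called only upward from day 0. In C57BL/6 it was at 6.26 and 5.90 at day 0, 6.14 and 6.82 at day 3, 6.94 and 6.70 at day 7, and 6.71 and 6.54 at day 14. In WldS it was at 5.73 and 6.01, then 6.45 and 6.68, then 7.53 and 6.76, then 6.08 and 5.49 at the same days. Both strains were highest on average at day 7, and the SD between replicates reached 0.54. The day 7 rise was 1.28 ± 0.27 in WldS (adjusted p = 0.0022) and 0.74 in C57BL/6 (adjusted p = 0.045). The C57BL/6 call ended in 13 of 26 alternatives, including without either day 0 array (0.92 and 0.56) or either day 7 array (0.62 and 0.85). With the 3′/5′ index as a covariate the WldS rise was 0.85 (adjusted p = 0.077). From day 7 to day 14 Pecam1 fell by 1.36 in WldS (adjusted p = 0.0089), and not past the test without WldS day 7 replicate 1 (-0.97) or WldS day 14 replicate 2 (-1.06).

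Of the receptors, Kdr differed from day 0 only at day 14 in C57BL/6. Its C57BL/6 arrays read 10.07 and 9.95 at day 0, 9.60 and 9.97 at day 3, 9.65 and 9.51 at day 7, and 9.46 and 9.27 at day 14. The day 14 arrays were below both uninjured ones, with a difference of -0.64 ± 0.17 (adjusted p = 0.0099). Leaving out C57BL/6 day 0 replicate 1 (-0.58) or C57BL/6 day 14 replicate 2 (-0.55) ended this call. WldS arrays read 9.79 and 9.87 at day 0, 9.91 and 9.99 at day 3, 10.47 and 10.05 at day 7, and 9.67 and 9.24 at day 14. No WldS group differed from day 0 by the test, and the interval at day 7 was 0.06 to 0.80. Kdr was higher in WldS than in C57BL/6 at day 7 by 0.68 (adjusted p = 0.027), and fell in WldS by 0.80 from day 7 to day 14 (adjusted p = 0.014). The first call ended without C57BL/6 day 7 replicate 1 (0.75) or replicate 2 (0.60) or WldS day 7 replicate 1 (0.47), and the second without WldS day 7 replicate 1 (-0.59) or WldS day 14 replicate 2 (-0.59).

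Tek gave no call in C57BL/6 and rose in WldS. C57BL/6 arrays were at 9.39 and 9.64 at day 0, 9.30 and 9.75 at day 3, 9.70 and 9.67 at day 7, and 9.26 and 9.34 at day 14, with no call. WldS arrays were at 8.44 and 8.82 at day 0, 9.49 and 9.49 at day 3, 10.13 and 9.68 at day 7, and 9.61 and 8.98 at day 14. Every injured WldS array was above both uninjured ones. The angiopoietin receptor gene rose by 0.86 ± 0.21 at day 3 (adjusted p = 0.0059), by 1.27 at day 7 (adjusted p = 0.00043) and by 0.67 at day 14 (adjusted p = 0.039). Uninjured WldS nerve differed from uninjured C57BL/6 nerve by -0.88 ± 0.21, which did not pass over all genes (adjusted p = 0.15), and did without WldS day 0 replicate 2 (-1.07, adjusted p = 0.018). The day 3 rise was 0.67 without WldS day 0 replicate 1 (adjusted p = 0.058) and 0.31 with the 3′/5′ index as a covariate (adjusted p = 0.41). The day 14 call ended in 10 of 27 alternatives, including without WldS day 0 replicate 1 (0.48) or WldS day 14 replicate 1 (0.35). The day 7 rise passed in each of 27 alternatives, where it was at least 0.80.

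Plvap, the marker of diaphragmed vessels, rose in both strains at day 3. In C57BL/6 it went from 9.87 and 9.71 at day 0 to 10.57 and 10.44, a rise of 0.71 ± 0.14 (1.64-fold, adjusted p = 0.00082). In WldS it went from 9.87 and 9.53 to 10.30 and 10.29, a rise of 0.60 ± 0.14 (1.51-fold, adjusted p = 0.0039). These day 3 arrays lay above all uninjured ones, and the rises differed between strains by -0.12, with an interval of -0.54 to 0.30.

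After day 3 the Plvap signal took different courses. C57BL/6 fell to 9.55 and 9.56 at day 7, a drop of 0.95 ± 0.14 from day 3 (adjusted p = 0.00037), and to 9.20 and 9.25 at day 14. The day 14 difference from day 0 was -0.57 (adjusted p = 0.0055), a call that ended without C57BL/6 day 0 replicate 1 (-0.49, adjusted p = 0.056). WldS held 10.08 and 10.44 at day 7, still 0.56 above its day 0 (adjusted p = 0.0063), and reached 9.59 and 9.48 at day 14. The difference of -0.73 between these days was called (adjusted p = 0.0071). The change from day 0 to day 7 differed between strains by 0.80 ± 0.20 (adjusted p = 0.036), which ended in 12 of 26 alternatives, including quantile normalization (0.68, adjusted p = 0.087). Without WldS day 7 replicate 2, the day 7 rise was 0.38, the fall to day 14 was -0.55 and the difference between strains 0.62, none of them called. The day 7 rise (0.39) and the strain difference (0.63) also failed without WldS day 0 replicate 2, and the fall without WldS day 14 replicate 2 (-0.67). The strain difference ended too without either array of C57BL/6 day 0 (0.72 and 0.88) or C57BL/6 day 7 (0.79 and 0.81).

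**Figure D2:**
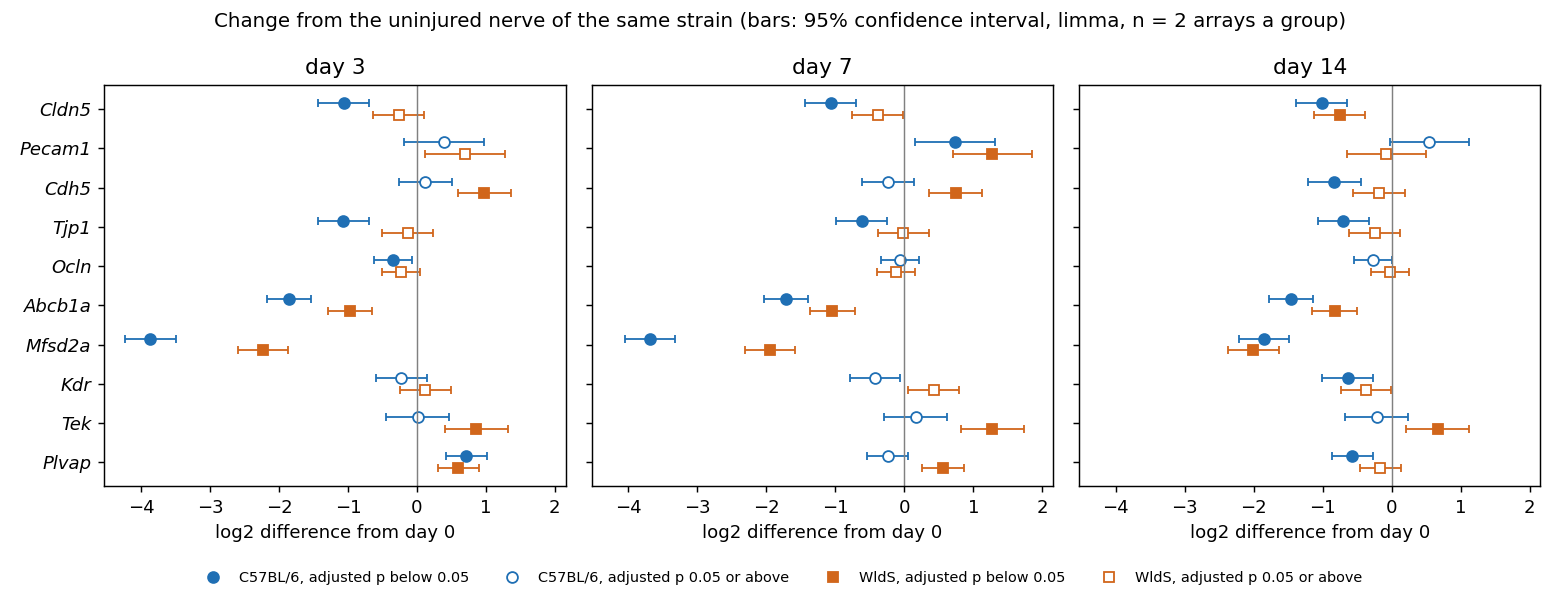
Each panel plots, for 1 day after crush, the log2 difference from the uninjured nerve of the same strain for the 10 genes, with 95% confidence intervals not adjusted for the number of tests; filled symbols passed the test over all genes. Mfsd2a stands farthest left in both strains, at -3.86 and -2.23 at day 3, while Cdh5, Kdr, Tek and Pecam1 of C57BL/6 are open at that day.

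Counted over the 10 genes, C57BL/6 had 5 lower (Mfsd2a, Abcb1a, Tjp1, Cldn5, Ocln) and 1 higher (Plvap) at day 3. Over all genes tested, 18.4% were lower and 22.6% higher. At day 7 there were 4 lower, where 16.4% of all genes were, and 1 higher, where 19.6% were. At day 14 there were 7 lower and none higher, where 16.7% of all genes were lower and 17.1% higher. The median difference of the 10 genes was -0.28, -0.33 and -0.67 at the 3 days, against 0.02, 0.02 and -0.00 for all genes.

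The counts in WldS were mixed and depended on the model. At day 3, 2 were lower (Mfsd2a and Abcb1a) and 3 higher (Cdh5, Tek, Plvap), where 15.2% of all genes were lower and 20.8% higher. At day 7 the same 2 were lower and 4 were higher (Pecam1 in addition), where the shares of all genes were 13.3% and 21.9%. At day 14, 3 were lower (Mfsd2a, Abcb1a, Cldn5) and 1 higher (Tek), where 8.56% and 12.7% were. With the 3′/5′ index as a covariate, day 3 had 4 lower (Mfsd2a, Abcb1a, Tjp1, Cldn5) and 1 higher (Plvap), and day 7 had 3 lower (Mfsd2a, Abcb1a, Cldn5) and 2 higher (Tek, Plvap). Of all 14545 genes, 3465 and 3337 were called in either direction at these days in that setting. The covariate thus turned which direction held more calls at both days. Medians were -0.01, 0.21 and -0.22 for the 10 genes, and -0.02, 0.01 and 0.01 for all genes. Without both arrays of high 3′/5′ index, 5, 6 and 4 of the 10 genes were called at day 3, day 7 and day 14 in WldS, and 6, 6 and 7 in C57BL/6. The shares of all genes in that setting are not given here.

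Between successive days few of the 10 genes were called. From day 3 to day 7 in C57BL/6, Plvap was lower, where 10.7% of all genes were. From day 7 to day 14, Mfsd2a was higher in C57BL/6, where 2.48% of all genes were. In WldS, none was called from day 3 to day 7 by limma, where 6.62% of all genes were called in either direction and 2717 had an unadjusted p below 0.05. From day 7 to day 14 in WldS, 4 genes fell (Pecam1, Cdh5, Kdr, Plvap), where 3.62% of all genes were lower. Without WldS day 14 replicate 2, none of the 4 passed.

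Set side by side on the same day, uninjured nerves of the strains gave no call among the 10 genes by limma, where 0.227% of all genes were called and 2549 had an unadjusted p below 0.05. At day 3, Mfsd2a, Cldn5 and Abcb1a were higher in WldS, by 1.83, 0.74 and 0.70, where 4.82% of all genes were higher. The call for Abcb1a was lost when C57BL/6 day 3 replicate 1 (0.52) or WldS day 3 replicate 2 (0.64) was left out. At day 7, Mfsd2a, Plvap, Kdr and Cldn5 were higher, by 1.94, 0.71, 0.68 and 0.62, where 3.86% were. The Plvap call of that day ended without C57BL/6 day 7 replicate 1 (0.70) or replicate 2 (0.71) or WldS day 7 replicate 2 (0.53). At day 14 none was called by limma, where 6.46% of all genes were called in either direction and 3294 had an unadjusted p below 0.05. The largest difference then was that of Pecam1, -0.84 in WldS against C57BL/6 with an interval of -1.41 to -0.26 (adjusted p = 0.082).

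The question of whether the strains changed differently from their own day 0 gave 3 positive calls at day 3 (Mfsd2a, Tjp1, Abcb1a), where 4.02% of all genes were called in that direction. It gave 3 at day 7 (Mfsd2a, Cdh5, Plvap), where 2.89% were. It gave none at day 14 by limma, where 1.58% of all genes were called in either direction and 1716 had an unadjusted p below 0.05. The medians of the 10 genes were 0.83, 0.74 and 0.33, and those of all genes 0.00, 0.01 and 0.03. Without both arrays of high 3′/5′ index, fewer of the 10 genes were called at day 3 and at day 7, with Mfsd2a called at both. Over all genes, fewer were called in the positive direction too at both days. That setting leaves a single array of uninjured WldS nerve, and the shares above, from all arrays, do not apply to it.

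**Figure D3:**
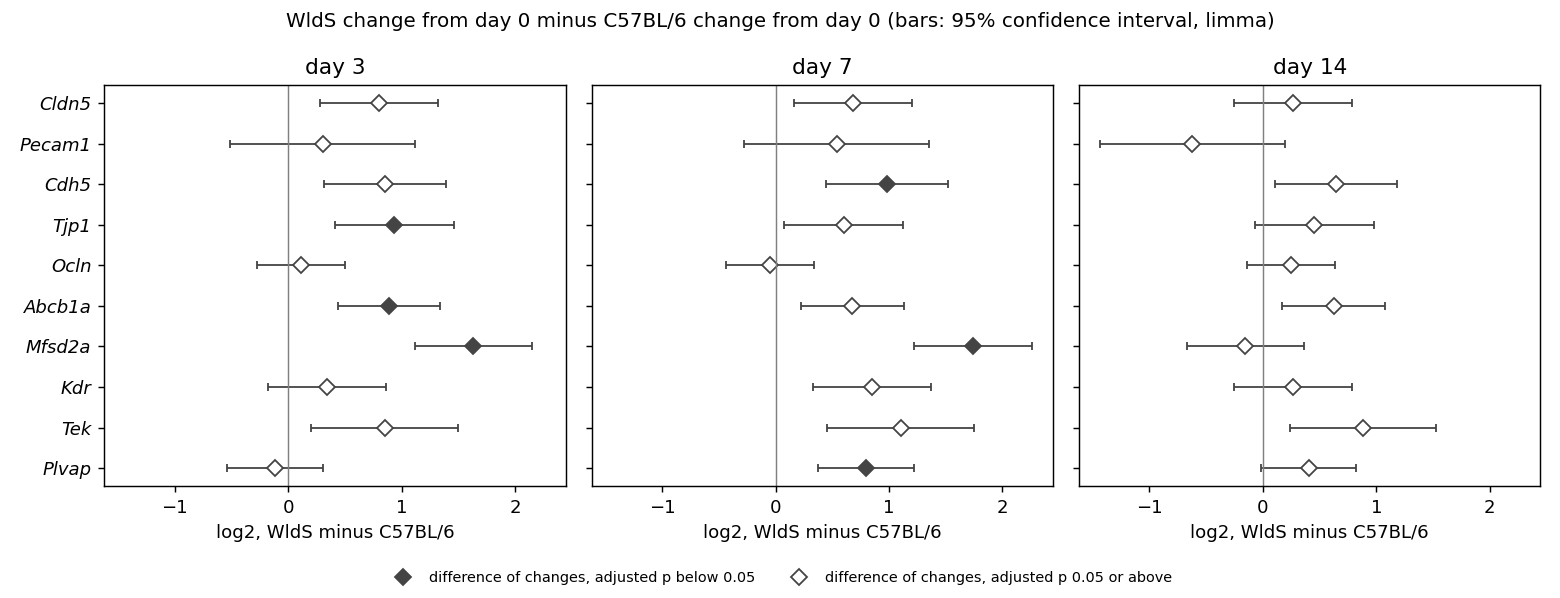
Each panel plots, for 1 day, how much more positive the log2 change from day 0 was in WldS than in C57BL/6, with 95% confidence intervals not adjusted for the number of tests; filled symbols passed the test over all genes. At day 3 and day 7 the point of Mfsd2a lies farthest right, at 1.63 and 1.74, and at day 14 it is at -0.15.

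Other genes of endothelium, none of them among the 10, gave counts that differed by day in C57BL/6, each set here beside the share of all genes. Of 20 pan-endothelial genes, 8 were higher and 3 lower at day 3, where 22.6% and 18.4% of all genes were. At day 7 the counts were 2 and 8 (all genes 19.6% and 16.4%), and at day 14 they were 1 and 9 (17.1% and 16.7%), with medians of 0.32, -0.25 and -0.48 at the 3 days. No list was tested as a whole. These shares of all genes stand beside the C57BL/6 counts of every list that follows. Counts in WldS and between strains stand beside the shares given above for the 10 genes in the same comparison. Fli1, an ETS factor, was 1.64 higher at day 3 (adjusted p = 3.6e-06), and Tie1, an orphan receptor that modulates Tek, was 1.11 higher (adjusted p = 0.00012). Ecscr, which encodes an endothelial surface protein, fell by 1.29 at day 3 (adjusted p = 0.00028) and fell by 2.53 at day 7 (adjusted p = 7.4e-07), both against day 0. In WldS, 13 of the 20 were higher and 1 lower at both day 3 and day 7, with medians of 0.68 and 0.69, where 20.8% and 21.9% of all genes were higher. At day 14, 2 were higher and 2 lower. Fli1 rose there by 2.42 at day 3 and Clec14a, a lectin-like endothelial protein, by 1.64.

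The strains' changes were then compared for these 20 genes. The change from day 0 was more positive in WldS for 12 of 20 genes at day 7, where 2.89% of all genes were called in that direction. It was called for none at day 3, where 4.02% were called in that direction. None was called at day 14, where 1.58% were called in either direction. The median was 0.88 at day 7, 0.41 at day 3 and 0.45 at day 14, and no gene was called the other way. The largest day 7 values were those of Ecscr (1.28, adjusted p = 0.034), Icam2, an adhesion protein (1.22, adjusted p = 0.0052), Ptprb, the phosphatase that acts on Tek (1.18, adjusted p = 0.041), and Sox18, a vascular transcription factor (1.16, adjusted p = 0.023). The mean of the 20 genes on the uninjured WldS arrays was -0.39 and -0.20 relative to uninjured C57BL/6, the lower from the array with the highest 3′/5′ index. Values of the 20 genes without that array are not given here, so its part in these differences cannot be read from them. Compared directly on the same day, 10 of the 20 were higher in WldS at day 7 (median 0.60), where 3.86% of all genes were. None was called at day 0 (median -0.30), where 0.227% of all genes were called. None was called at day 3 either (median 0.03), where 4.82% of all genes were higher. At day 14, 1 was higher and 1 lower.

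Among transporters typical of barrier endothelium, Slco1a4, Slco1c1 and Slc2a1 were lower in both strains. Of 15 tested, 7 were lower and 3 higher at day 3 in C57BL/6, 5 and 1 at day 7, and 7 and 2 at day 14. In WldS the counts were 4 lower and 2 higher at day 3, 4 and 1 at day 7, and 4 and 1 at day 14. At day 3 the lower ones were 46.7% of the list in C57BL/6 and 26.7% in WldS, against 18.4% and 15.2% of all genes. Slco1a4, an organic anion carrier, differed from day 0 by -2.73 at day 3 in C57BL/6 (adjusted p = 2.0e-08) and by -1.89 in WldS (adjusted p = 1.3e-06). Slco1c1, a thyroxine carrier, differed by -1.37 and -0.90, and Slc2a1, the glucose transporter GLUT1, by -1.31 and -0.82. Abcc4, another efflux pump, was higher by 1.29 and 0.92. Slco1a4 was higher in WldS than in C57BL/6 by 1.38 at day 3 (adjusted p = 0.0001), yet no transporter's change differed between strains at day 3 or day 7 by the test (medians 0.08 and 0.13).

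Junction partners outside the 10 genes included several that are not endothelial alone. Of 14 tested, 6 were lower and 1 higher in C57BL/6 at day 3, 6 and 0 at day 7, and 5 and 1 at day 14. Cldn19, the claudin of myelinating Schwann cells, fell by 2.96 at day 3 (adjusted p = 2.0e-05). Jam3, a junctional adhesion molecule, fell by 2.02, Cldn1, the perineurial claudin, fell by 1.67, and F11r, which encodes JAM-A, fell by 1.07. In WldS 2 of the 14 were lower and 1 higher at day 3, the largest difference being Cldn12 (-1.04, adjusted p = 0.00011). The change was more positive in WldS at day 3 for Cldn19 (2.52, adjusted p = 0.012), Cldn1 (1.85), Jam3 (1.51) and F11r (0.84), and for 1 of the 14 at day 7. Of all genes, 4.02% and 2.89% were called in that direction at these days.

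Among ligands and receptors of the VEGF, angiopoietin and apelin pathways, Aplnr and Nrp1 were higher and Vegfb lower in both strains at day 3. Of 16 tested, 3 were higher and 2 lower in C57BL/6 at day 3, 2 and 5 at day 7, and 1 and 4 at day 14. In WldS 5 were higher and 1 lower at day 3, 8 and 1 at day 7, and 2 and 1 at day 14. The C57BL/6 shares at day 3, 18.8% higher and 12.5% lower, were near those of all genes, 22.6% and 18.4%, and say nothing particular of the list. Aplnr, the apelin receptor of sprouting vessels, rose by 2.53 in C57BL/6 (adjusted p = 0.00014) and 2.38 in WldS at day 3 (adjusted p = 0.00034). Nrp1, a VEGF co-receptor, rose by 0.89 and 1.23. Vegfb fell by 0.98 and 0.91. Vegfc, a ligand of Kdr and of the lymphatic receptor, fell in C57BL/6 by 0.79 and rose in WldS by 0.67 at day 3. Its strain difference in change was 1.46 at day 3 (adjusted p = 0.0015), 1.38 at day 7 and 1.43 at day 14 (adjusted p = 0.0079).

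Genes of caveolae and of leukocyte adhesion bear on vesicle transport and inflammation of the vessel wall. Of 8 tested, 3 were higher and 3 lower in C57BL/6 at day 3, 2 and 4 at day 7, and 1 and 4 at day 14. In WldS 4 were higher and none lower at day 3 and at day 7, and 2 and 1 at day 14. At day 3 the list's shares in C57BL/6 were 37.5% higher and 37.5% lower, against 22.6% and 18.4% of all genes. Selp, the P-selectin gene, rose by 1.69 in C57BL/6 and 1.49 in WldS at day 3. Cavin2, a coat protein of caveolae, fell by 1.12 at day 3 in C57BL/6, and its WldS difference of -0.39 was not called. Vcam1 rose by 1.25 in WldS at day 3, and its change exceeded that of C57BL/6 by 0.92 (adjusted p = 0.0076).

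Wnt signalling, which maintains the barrier in brain endothelium, was described by 14 genes. In C57BL/6 5 were lower and 3 higher at day 3, 5 and 1 at day 7, and 4 and 2 at day 14. In WldS 5 were lower and 2 higher at day 3, 3 and 3 at day 7, and 2 and 3 at day 14. At day 3 the lower ones were 35.7% of the list in either strain, against 18.4% of all genes in C57BL/6 and 15.2% in WldS. Reck, part of the receptor complex for Wnt7 ligands, fell by 1.56 in C57BL/6 at day 3 (adjusted p = 1.6e-06). Apcdd1 and Axin2, which respond to and restrain the pathway, differed from day 0 by -1.33 and -1.28 in C57BL/6 and by -0.95 and -0.49 in WldS. Foxq1, a transcription factor, rose by 1.23 in C57BL/6 and fell by 0.54 in WldS. The strain difference in change at day 3 was 1.14 for Reck, 0.79 for Axin2 and -1.77 for Foxq1 (adjusted p = 0.00029).

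Cells other than endothelium also changed in these segments, and several express genes of this group. Perineurial markers fell in C57BL/6 at day 3, 4 of 4 tested, with a median of -1.92, led by Itgb4 (-2.52) and Krt19 (-2.17). The list shares Slc2a1 with the transporters and Cldn1 with the junction partners. In WldS 1 of 4 was lower at day 3, and the change was more positive there for 3 of 4. Of all genes, 15.2% were lower in WldS and 4.02% had a change called more positive. The summed level, as the mean log2 signal relative to uninjured C57BL/6, was -1.95 to -1.89 on the C57BL/6 arrays of day 3 and -0.85 to -0.82 on those of WldS. On the uninjured WldS arrays it was -0.75 and -0.20, the lower from the array with the highest 3′/5′ index. Values of these markers without that array are not given here, so its part in the WldS counts cannot be read from them.

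Schwann cell markers showed a similar contrast. Of 7 tested, 7 were lower in C57BL/6 at day 3 and 6 at day 7, with medians of -1.96 and -1.49, and 2 at day 14. In WldS 6 and 4 were lower at day 3 and day 7, with medians of -0.57 and -0.35. Their mean level relative to uninjured C57BL/6 was -1.89 to -1.76 in C57BL/6 at day 3, -0.72 to -0.63 in WldS at day 3, and -0.29 to -0.21 and -0.32 to -0.18 at day 14. In C57BL/6 at day 3, where both lists were lower, so were Mfsd2a, Abcb1a, Tjp1, Cldn5 and Ocln. In WldS at that day Mfsd2a and Abcb1a were lower, and Tjp1 (-0.13), Cldn5 (-0.26) and Ocln (-0.23) were not called. The part of perineurial and Schwann cells in these values was not tested.

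Mural cells of the vessels, described by 11 pericyte and smooth muscle markers, were lower for 5 and higher for 1 in C57BL/6 at day 3. In WldS 1 was lower and 4 higher. Tagln, a smooth muscle actin-binding protein, fell by 1.44 in C57BL/6 and rose by 0.85 in WldS. Macrophage markers rose in both strains at day 3, 8 of 8, with medians of 2.07 and 2.61, and cell cycle genes rose, 7 of 7, with medians of 3.80 and 3.39. Of 5 lymphatic markers, 1 was higher and 1 lower in C57BL/6 at day 3, and 1 was higher in WldS; the defining gene Prox1 was too dim to test. Of 5 platelet markers, 1 was higher and 1 lower in C57BL/6 and 2 higher in WldS. Adipocyte markers were lower for 4 of 5 in C57BL/6 at day 3 (median -1.05) and for 1 in WldS, with 1 higher. Of 4 skeletal muscle markers, 2 were lower in each strain. The part of these cells in the values of the 10 genes and of the pan-endothelial genes, Fli1 among them, was not tested.

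**Figure D4:**
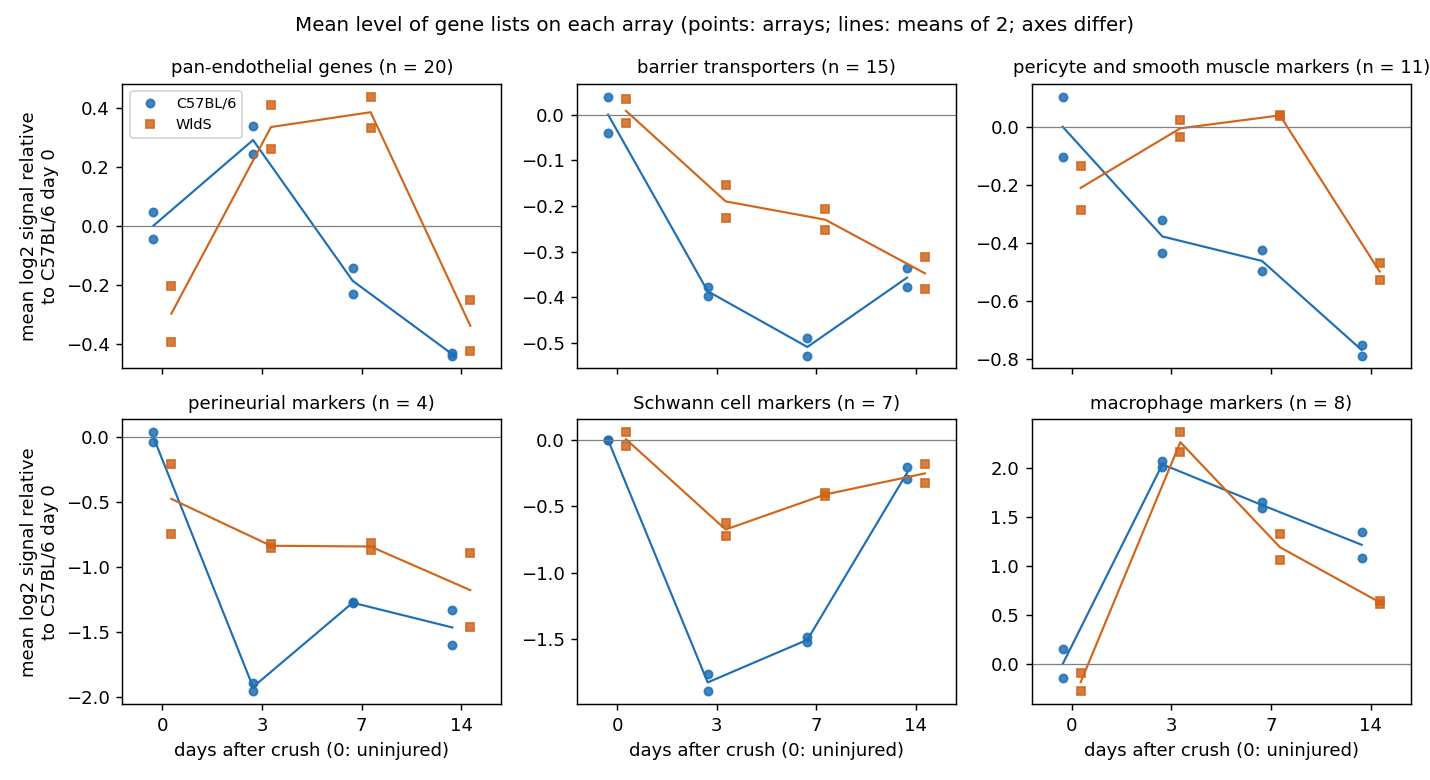
Each panel plots, for 1 gene list, the mean log2 signal on each of the 16 arrays relative to the mean of uninjured C57BL/6 against the day after crush, with lines through the means of 2 (vertical axes differ). Perineurial markers reach -1.95 and Schwann cell markers -1.89 in C57BL/6 at day 3, while pan-endothelial genes lie between 0.24 and 0.41 on the day 3 arrays of both strains.

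For 8 of the 10 genes the group means spanned at least 1 log2 unit, and the tested genes nearest in profile were listed by the mean absolute difference of centred means over the 8 groups. These distances were not scaled by span and tend to be larger for a wide span, so they are not compared between the 10 genes. Mfsd2a, with the widest span (4.06), was nearest to Vat1l at 0.23, then Rimklb and Slc6a15 at 0.28. Abcb1a was nearest to Gstk1 (0.074), Proser2 and 9930012K11Rik. Cldn5 lay nearest to Galnt16 (0.065), Ntn4 and Plekhf1. Tjp1 lay nearest to Tspan3 (0.057), Pygm and Cpb1. Cdh5 lay nearest to Adgrd1 (0.074), Sfrp1 and Cxcl12. Pecam1 was nearest to Cd34 (0.14), itself an endothelial surface marker, Nit2 and N4bp2. Tek was nearest to Crtap (0.071), B3gnt9 and Septin7. Plvap was nearest to Spns2 (0.057), an endothelial exporter of sphingosine 1-phosphate, Tmem88 and Fam149a. Ocln and Kdr spanned 0.36 and 0.89.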

How the data were processed

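The authors deposited log2 values for 45101 probe sets on 16 Affymetrix arrays. Per the submitters' processing notes, GCOS 1.4, RMA, limma and Partek were used, without a role for each; the deposited log2 scale was read from the values. The 10 genes and all gene lists were chosen with earlier results of these data known.

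Control probe sets (64) and those with several symbols (932) or none (9160) were left out. Each gene was represented by its brightest probe set. Genes with a mean under the 30th percentile (log2 5.37) were not tested. The 8 group means were fitted on all 16 arrays with limma 3.58.1 in R 4.3.3 (lmFit, eBayes, Benjamini-Hochberg adjustment within each comparison, threshold 0.05). Profiles and figures used Python 3.11.15. The deviations of same-numbered arrays from their group means correlated at over 0.1 in 5 of 28 pairs of groups and under -0.1 in 7. The values ran from -0.58 to 0.19, so replicate numbers gave no common pairing and arrays were not paired. The lowest value was that of WldS day 0 with WldS day 14, whose arrays of high 3′/5′ index have different replicate numbers. Genes named beside the 10 were up to 4 called genes with the largest change of each list and the 3 nearest profiles. Alternatives covered scaling, filter, probe set rule, model, blocks and left-out arrays.

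The fit was tested on simulated data with 14545 genes, of which 14345 were unchanged, and with noise independent between genes and arrays. Of 50 genes raised by 1 on the log2 scale in WldS at day 3, 38 were called, and 27 of 50 in the test between strains. In the data, 3031 genes were called higher and 2205 lower in WldS at day 3, and array effects may be shared between genes. The simulation thus checks the fit and does not give the share of real changes that was found. The number of arrays limits the precision.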

Additional observations from a re-analysis of the deposited data

Results flagged for a closer look

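The change from day 0 differed between strains by a test of the difference itself for 6 values. Mfsd2a gave 1.63 at day 3 and 1.74 at day 7 (log2, WldS change minus C57BL/6 change), and both were called in all 26 alternatives. For Abcb1a the difference was 0.89 at day 3 and for Tjp1 0.93 at day 3. Those of day 7 were 0.98 for Cdh5 and 0.80 for Plvap. Each group had 2 arrays, too few to look for single outlying arrays.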

How the results depend on the processing

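Of 170 differences of the 10 genes, 52 were called. This total mixes comparisons with very different shares of all genes called, which are given with the counts above. Of the called differences, 26 held in every alternative, 26 ended in at least 1 and 0 reversed. The held calls include all those of Mfsd2a, those of Abcb1a against day 0 in both strains, and those of Cldn5 in C57BL/6. The replicate numbers do not pair the arrays. With a replicate block, 6 calls of the 10 genes ended, such as the strain difference in change of Tjp1 at day 3 (0.93, adjusted p = 0.054). Over all genes, 19 were then called between uninjured strains (main 33). Quantile normalization changed the split of higher and lower calls to 2660 and 2729 in WldS at day 3 (main 3031 and 2205), so that lower calls were more, to 2690 and 2494 at day 7 (main 3188 and 1934) and to 528 and 433 between strains at day 14 (main 422 and 517).

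The genes called over all genes changed by more than 1.5 times as follows. With the 3′/5′ index as a covariate they numbered 3465 and 3337 in WldS at day 3 and day 7, 1677 from day 3 to day 7 in WldS, 15 between uninjured strains and 375 for the strain difference in change at day 14. With each strain fitted on its own they numbered 1986 in WldS at day 14, 1217 in C57BL/6 and 280 in WldS from day 7 to day 14, and 459 in WldS from day 3 to day 7. Without both arrays of high index they numbered 365 in WldS from day 7 to day 14, 563 between strains at day 14 and 139 for the change at day 14. Cyclic loess gave 21 between uninjured strains. Of the 10 genes, 2 were called from day 3 to day 7 and 2 from day 7 to day 14 in C57BL/6 under each strain on its own, without both arrays and with the covariate. From day 7 to day 14 in WldS, 1 was called with the strain on its own and 2 without both arrays. Between strains at day 14, 1 was called with quantile normalization and with the covariate. For the change at day 3, 1 was called without both arrays and with the covariate, and at day 7, 1 with quantile normalization.

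Leaving out single arrays gave these ranges. The ranges over all genes in C57BL/6 at day 7 and day 14 are not given here. The counts of the 10 genes at those days therefore have no share of all genes beside them. Of the 10 genes, 3 to 6 were called in C57BL/6 at day 7 and 4 to 7 at day 14, 1 to 2 between its successive days (day 3 to 7, and day 7 to 14), 0 to 1 and 0 to 5 in WldS over the same steps, 0 to 3, 1 to 4, 1 to 4 and 0 to 1 between strains at day 0, 3, 7 and 14, and 1 to 6 and 1 to 5 for the change at day 3 and day 7. Over all genes the ranges were 3316 to 5423 in WldS at day 3, 1767 to 3322 at day 14, 1123 to 3481 and 314 to 962 in C57BL/6 over its successive days, 319 to 1259 and 246 to 1073 in WldS, 7 to 1791, 723 to 1647, 427 to 1235 and 344 to 1294 between strains at the 4 days, and 460 to 2058, 235 to 1647 and 57 to 525 for the change at day 3, 7 and 14. The cause of these changes was not tested. Where an array is left out, the lone array of its group is assumed to vary like the others.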
